A study of Mus musculus with 24 samples.

Results

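The livers of mice lacking either of a pair of signalling proteins were set directly against each other, across 12605 genes of the 24319 listed in the liver table. These are the genes that the authors' differential expression program tested for this pair of genotypes and that reached an expression value of 0.1 in either knockout. The first group was Liver Shp2 KO, of genotype Alb-Cre+;Shp2f/f, and the other was Liver IkkB KO, of genotype Alb-Cre+;IkkBf/f, with 3 biological replicates each. The 6 samples came from male mice aged 2 months, whose strain is given as C57/BL6. Both groups carried the same Cre recombinase transgene, whose albumin promoter is active in hepatocytes, which limits the deletions to cells that use that promoter. Wild-type mice (WT; whether they carried the Cre transgene is not given in the sources used here) and Double KO mice (Alb-Cre+;IkkBf/f;Shp2f/f), with 3 replicates per genotype, serve below only to place the levels. PolyA RNA of whole liver was sequenced, and isolated hepatocytes of the same 4 genotypes were sequenced separately, for 24 samples in all. The series title asks about joint disruption of the Ras-Erk and NF-κB pathways, the circadian clock and liver cancer.

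Shp2, the product of Ptpn11, is a tyrosine phosphatase that passes signals from growth factor and cytokine receptors to the Ras-Erk kinase cascade, and it can also dampen Jak-Stat signalling. IkkB, the product of Ikbkb, is the kinase that marks the inhibitor of NF-κB for destruction and so frees NF-κB to enter the nucleus. In hepatocytes the Ras-Erk branch takes part in growth, in bile acid feedback and in metabolic control, and the NF-κB branch in the acute phase response and in survival.

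Each value is the authors' FPKM (fragments scaled to transcript length and to mapped fragments in the library), given as 1 number per gene and genotype over the 3 replicates. No replicate value was there to give an SD, and no read count to give the depth of a library, so depth is unknown. Differences are given on the scale log2((Shp2 KO + 1)/(IkkB KO + 1)), and folds as the plain ratio of the 2 values. A gene is called higher or lower when the q-value of the authors' deposited table, an adjusted p-value from Cuffdiff, is under 0.05. That q-value carries the only estimate of replicate spread used here. By this rule 1295 genes differed, 10.3% of those tested: 685 were higher in Shp2 KO liver (5.43%) and 610 were lower (4.84%). The median difference over all tested genes was -0.01. In 684 of the called genes the ratio was at least 2, and 587 sat at 0.000955, the smallest q-value in the authors' deposited table.

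**Figure D1:**
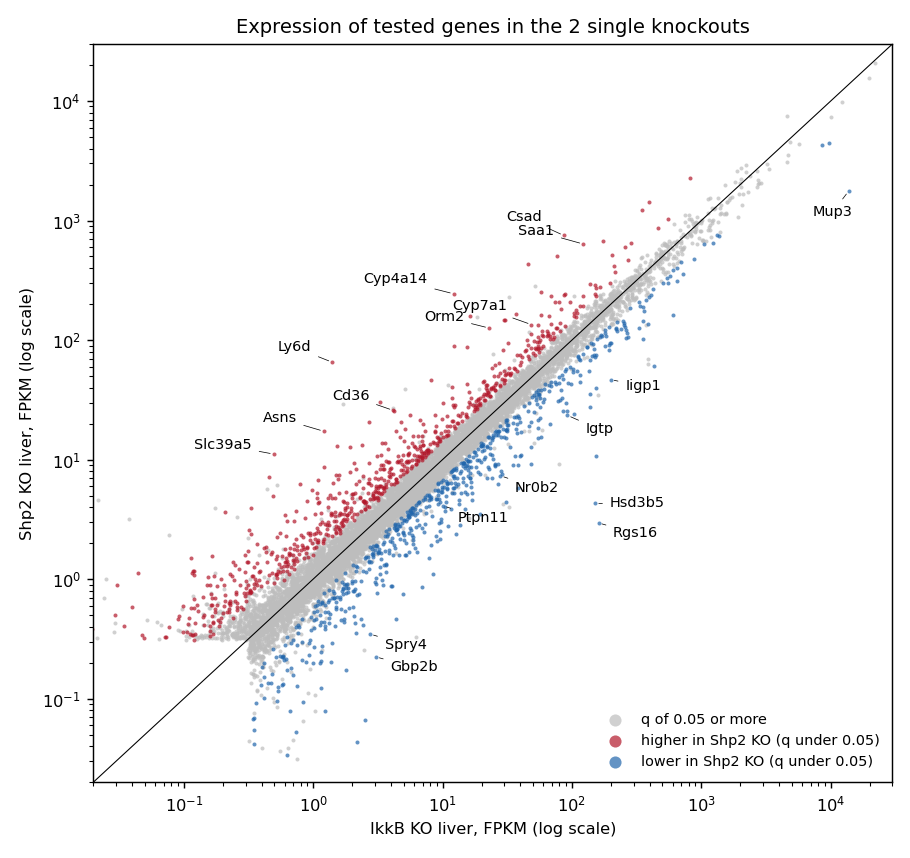
Each point is 1 gene, plotted by its FPKM in IkkB KO liver (x, log scale) and Shp2 KO liver (y, log scale), with 1 value per genotype and the line of equal values in black. Red marks the 685 genes higher and blue the 610 genes lower in Shp2 KO liver, and genes with a value of 0 or under 0.02 are outside the axes; Cyp4a14, Ly6d and Csad lie far above the line and Rgs16 and Hsd3b5 far below it.

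The targeted transcripts followed the labels. Ptpn11 stood at 4.09 in Shp2 KO liver against 10.1 in IkkB KO, 12.5 in WT and 6.09 in Double KO (q = 0.000955 for the pair in the authors' deposited table). Ikbkb stood at 9.48 in IkkB KO liver against 14.2 in Shp2 KO, 15.7 in WT and 6.31 in Double KO (q = 0.0197 in the authors' deposited table). Each transcript was lowest among the single knockouts where its own gene was deleted, and neither was at 0. Which exons the floxed alleles remove is not given in the sources used here. Among 36 tested partners of both proteins (adaptors, Ras-Erk kinases, receptors, IKK and Rel subunits), 2 were higher and 0 lower in Shp2 KO liver, a share near that of all tested genes. Those called were Irs2, an insulin receptor substrate, at 2.47 in Shp2 KO against 1.499 in IkkB KO, and Ikbkg, the regulatory IKK subunit, at 17.3 against 10.99. Of 10 tested hepatocyte markers 1 was higher and 1 lower in Shp2 KO (median -0.29), and the 10 with a value summed to 17886 in Shp2 KO and 26113 in IkkB KO (WT 25129). The part of this difference in the results below was not tested. The higher one was Cyp3a11, a drug-metabolising enzyme, and the lower one Apoc3, an apolipoprotein, at 4453 against 9714. Among those not called, Ttr, a thyroid hormone carrier, was at 7357 and 10049, and Apob, the backbone of lipoproteins, at 195 and 204, in Shp2 KO and IkkB KO. Alb, albumin, was too abundant for the program and is listed at 0 in both.

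The interferon-induced GTPases formed the list of at least 10 tested genes in which the pair differed in the largest share of members. Interferon gamma acts through short palindromes in DNA called GAS elements, and type I interferon through a complex that includes Irf9 and binds the ISRE. The immunity-related GTPases (Igtp, Irgm1, Irgm2, Iigp1) and the guanylate-binding proteins (Gbp) are induced by this route and attack the vacuoles of intracellular pathogens. Of 18 tested members of the GTPase list, 15 were lower and 0 higher in Shp2 KO liver, beside 4.84% and 5.43% of all tested genes. The list median was -1.14. All lists were chosen with earlier results of these data known. Over all lists 295 of 831 tested genes were called, against 10.3% of all tested genes.

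The 250 bases before the start of 4 called GTPase genes are shown because they hold both motifs; RefSeq sequence on build GRCm38.p6, read on the gene's strand, with the motif matches in capitals (GAS, TTCNNNGAA, and ISRE, GAAA and GAAA with any 2 bases between, or its complement TTTC and TTTC). Igtp lies at chr11:58199306-58199555, Irgm2 at chr11:58214727-58214976, Gbp7 at chr3:142530086-142530335 and Gbp5 at chr3:142496684-142496933, each on the plus strand and ending at the base before the gene start.
Igtp: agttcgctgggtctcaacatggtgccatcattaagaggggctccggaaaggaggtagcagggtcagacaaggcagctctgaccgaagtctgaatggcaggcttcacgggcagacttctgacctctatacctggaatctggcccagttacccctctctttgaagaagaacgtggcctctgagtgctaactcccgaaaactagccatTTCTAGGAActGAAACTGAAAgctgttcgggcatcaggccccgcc
Irgm2: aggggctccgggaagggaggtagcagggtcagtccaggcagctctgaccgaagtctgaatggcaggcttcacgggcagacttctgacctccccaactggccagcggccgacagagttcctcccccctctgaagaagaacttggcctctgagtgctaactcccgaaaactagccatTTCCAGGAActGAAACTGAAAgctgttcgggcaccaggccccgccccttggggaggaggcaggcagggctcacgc
Gbp7: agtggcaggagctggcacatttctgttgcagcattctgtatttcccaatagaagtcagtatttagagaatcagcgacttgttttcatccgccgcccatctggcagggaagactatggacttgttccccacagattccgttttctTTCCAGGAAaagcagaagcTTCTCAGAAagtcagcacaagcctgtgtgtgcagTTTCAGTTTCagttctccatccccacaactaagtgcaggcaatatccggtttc
Gbp5: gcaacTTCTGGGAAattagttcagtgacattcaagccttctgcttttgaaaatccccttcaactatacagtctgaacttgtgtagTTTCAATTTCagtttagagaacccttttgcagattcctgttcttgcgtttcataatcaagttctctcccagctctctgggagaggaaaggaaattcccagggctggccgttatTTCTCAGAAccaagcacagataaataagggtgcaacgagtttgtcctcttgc
In Igtp and in Irgm2 a GAS match (TTCTAGGAA in Igtp, TTCCAGGAA in Irgm2) is followed by the same ISRE match, GAAACTGAAA. The bases on either side of these matches are also largely the same in Igtp and Irgm2, so the genes are not independent examples. No GAS match in the 4 genes shown overlapped an ISRE match.

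Of 11 GTPase genes of the list with a RefSeq promoter, 10 held an ISRE match on either strand in these 250 bases and 6 a GAS match; among the 9 of them called, 8 and 4 did. Over all 27025 genes in the promoter table the shares were 3.46% for the ISRE and 8.13% for GAS. Such a match describes letters in the window and does not show binding. In the antigen presentation list, 2 of 18 genes with a promoter held an ISRE match and 2 a GAS match. Of its 10 called ones, 1 held an ISRE match and 1 a GAS match. In the type I interferon list 9 of 18 held an ISRE match and 3 a GAS match, and of its 6 called ones 3 and 0 did.

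Igtp stood at 23.4 in Shp2 KO liver and 92.2 in IkkB KO, a 3.93-fold difference, with 20.5 in WT and 26.8 in Double KO. IkkB KO was thus the genotype set apart for this gene. Iigp1 stood at 46.7 in Shp2 KO and 199 in IkkB KO, with WT between them at 120.1. Irgm2 was at 10.8 against 36.2 (WT 16.4), and Irgm1, which regulates the other family members, at 25.7 against 45.8 (WT 28.9). Of 11 tested Gbp genes 10 were lower in Shp2 KO, at values under 10 in both knockouts. Gbp10 was 7.96-fold higher in IkkB KO (6.89 against 0.866), Gbp3 4.37-fold (9.09 against 2.08) and Gbp2 3.25-fold (5.49 against 1.69). Members not called were Gbp11, at 9.66 and 8.48, Gm4951, at 22.2 and 30.7, and Tgtp2, at 0.892 and 1.76, in Shp2 KO and IkkB KO. Tgtp2 is the 1 gene of the liver table whose value for a genotype differs from pair to pair, so its level is uncertain. Some genes of these families are closely alike, so their reads could be assigned to another copy, which was not tested.

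Of 28 tested type I interferon response genes, 10 were lower and 1 higher in Shp2 KO. Examples were Irf9, the DNA-binding part of the interferon complex, at 13.1 against 20.5, Isg15, a ubiquitin-like modifier, at 19.3 against 31.6, and Zbp1, a sensor of unusual nucleic acids, at 6.98 against 16.3. The exception was Xaf1, which promotes cell death, at 9.75 in Shp2 KO against 3.62 in IkkB KO.

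Most antigen presentation genes were lower in Shp2 KO. Of 21 tested members, 15 were lower and 0 higher in Shp2 KO liver, with a median of -0.87. Class I loading genes included Tap1, a subunit of the peptide transporter, at 9.19 in Shp2 KO and 25.3 in IkkB KO, with WT at 13.7. The immunoproteasome subunit Psmb9 was at 25.5, 84.8 and 33.7 in the same order, and Nlrc5, the transactivator of class I genes, at 2.12, 5.91 and 2.79. In Double KO liver these 3 were well below IkkB KO, at 10.6, 27.9 and 3.62. Class II genes showed another order. Cd74, the invariant chain, was at 91.3 in Shp2 KO and 90.6 in WT, and at 193 in IkkB KO and 199 in Double KO. H2-Aa followed it, at 43.1, 44.3, 98.1 and 104. Ciita, the master regulator of class II genes, was low throughout, at 0.224 in Shp2 KO and 0.574 in IkkB KO. B2m, the class I light chain, was at 3066 and 4616 and was not called.

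**Figure D2:**
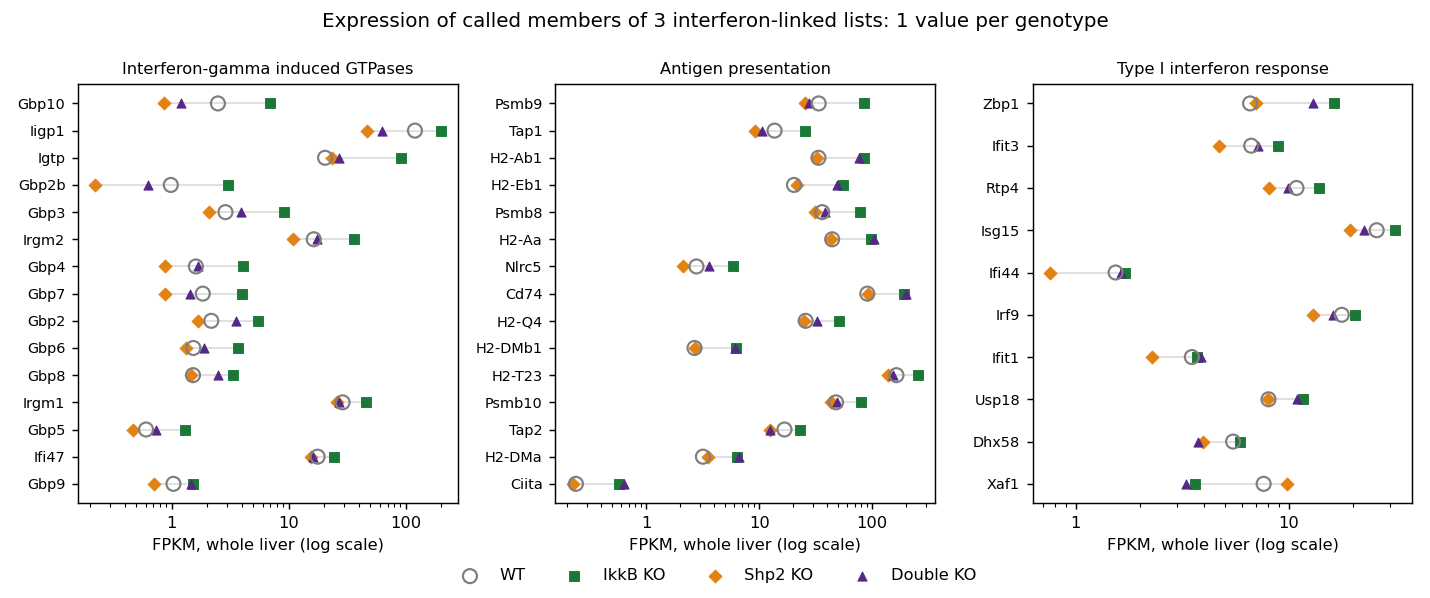
Expression in whole liver (x, FPKM, log scale) of called members of 3 lists, with 1 marker per genotype and no error bars, since each genotype has 1 deposited value; in 39 of the 40 genes plotted IkkB KO (square) lies to the right of Shp2 KO (diamond), the other being Xaf1. Double KO (triangle) lies beside IkkB KO for class II genes such as Cd74 and H2-Aa and beside WT or Shp2 KO for Tap1, Psmb9 and Igtp.

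Lymphocyte transcripts moved with the interferon genes. Of 16 tested lymphocyte markers, 7 were lower and 0 higher in Shp2 KO liver, and the 21 listed markers summed to 9.01 in Shp2 KO and 17.6 in IkkB KO (12.4 in WT, 16.4 in Double KO). Gzma, a granzyme of killer cells, was at 0.5699 against 1.898, Cd4 at 0.3097 against 0.947 and Cd8a at 0.0952 against 0.528. The highest value of the list in either knockout was 2.28, for Nkg7 in IkkB KO, and 0 markers of the list were at 0 in both groups. In whole tissue, fewer cells of a type and less RNA per cell cannot be told apart. Macrophage markers summed to 514 and 514: Marco, a scavenger receptor, was lower in Shp2 KO at 5.24 against 11.7, and Lyz2, lysozyme, higher at 58.5 against 35.5 (2 higher and 2 lower of 21 tested). The part of immune cells in the interferon result was not tested. In isolated hepatocytes the GTPase list summed to 162 in Shp2 KO and 569 in IkkB KO, and the lymphocyte markers to 3.097 and 5.32.

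Most called Ras-Erk feedback genes were lower where Shp2 was deleted. These genes are switched on by Erk and several of them brake the same pathway. Of 16 tested members of the list, 8 were lower and 1 higher in Shp2 KO than in IkkB KO liver (median -0.35). Spry4, a Sprouty inhibitor, was at 0.346 in Shp2 KO and 2.75 in IkkB KO, with WT at 2.33. The Erk phosphatase Dusp6 was at 4.61 and 13.3 (WT 12.1), and Spred1, which blocks Raf activation, at 0.583 and 2.04 (WT 1.91). For these 3 genes IkkB KO lay close to WT and Shp2 KO below both. Ccnd1, cyclin D1, was 2.98-fold lower in Shp2 KO, at 5.14 against 15.3, while Double KO stood at 22.2. Myc, a growth-promoting transcription factor, went the other way, at 6.02 in Shp2 KO and 3.25 in IkkB KO, with WT at 5.12. Some members had low values in both, such as Dusp4 at 0.126 and 0.536.

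Among 26 tested NF-κB target genes, 1 was higher and 2 were lower in Shp2 KO, a share near that of all tested genes. The one higher was Gadd45b, a stress and survival factor, at 2.66 against 1.06 in IkkB KO. Ccl5, a chemokine of T cells, was lower at 3.86 against 11.7, and Birc3, an inhibitor of apoptosis, at 3.48 against 5.82. Nfkbia, the NF-κB inhibitor, was at 29.003 and 38.9 and Cxcl1, a neutrophil chemokine, at 5.16 and 4.16, neither called.

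Several acute phase transcripts were several-fold higher in Shp2 KO than in IkkB KO liver. Acute phase proteins are secreted by hepatocytes in response to interleukin 6 and interleukin 1. Of 28 tested members, 7 were higher and 3 lower (median -0.07). Saa1, a serum amyloid A protein, was at 636 in Shp2 KO and 122 in IkkB KO, with WT at 534. Its near-identical neighbour Saa2 was at 504, 76.7 and 233, and the paralog Saa3 at 40.6, 11.8 and 17.5. For Saa1, Shp2 KO lay close to WT and IkkB KO below it. Orm2, an orosomucoid, differed 5.52-fold, at 126 in Shp2 KO against 22.8 in IkkB KO, and WT stood lower than both, at 14.8. Lcn2, an iron-scavenging lipocalin, was at 32.6 against 11.9, and Socs3, the feedback inhibitor of Stat3, at 8.39 against 3.49. Double KO liver had the highest value of the 4 genotypes for Saa1 (1474), Saa2 (1280.1), Orm2 (649.6), Lcn2 (131) and Socs3 (15.1).

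The lower members of the same list included Hamp and Hamp2. Both encode hepcidins, of which Hamp controls iron export. Hamp was at 4319.8 in Shp2 KO and 8532 in IkkB KO, and Hamp2 at 60.6 and 428, with WT between them at 5188 and 256. The serpin gene Serpina3m was at 39.6 against 153. Genes of the list not called included Orm1, at 1158 and 1131, and Saa4, the constitutive serum amyloid, at 177 and 171. Of 11 tested metallothionein and zinc transport genes, 1 was higher and 0 lower, a share near that of all tested genes. The zinc carrier Slc39a5, described below, is not in this list. The higher one was Mt2, a zinc-binding protein, at 99.6 in Shp2 KO against 44.7 in IkkB KO. Both Mt2 values lay far below WT, at 1032. Mt1 was at 194 and 133 (WT 1675) and was not called (q = 0.0801 in the authors' deposited table).

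**Figure D3:**
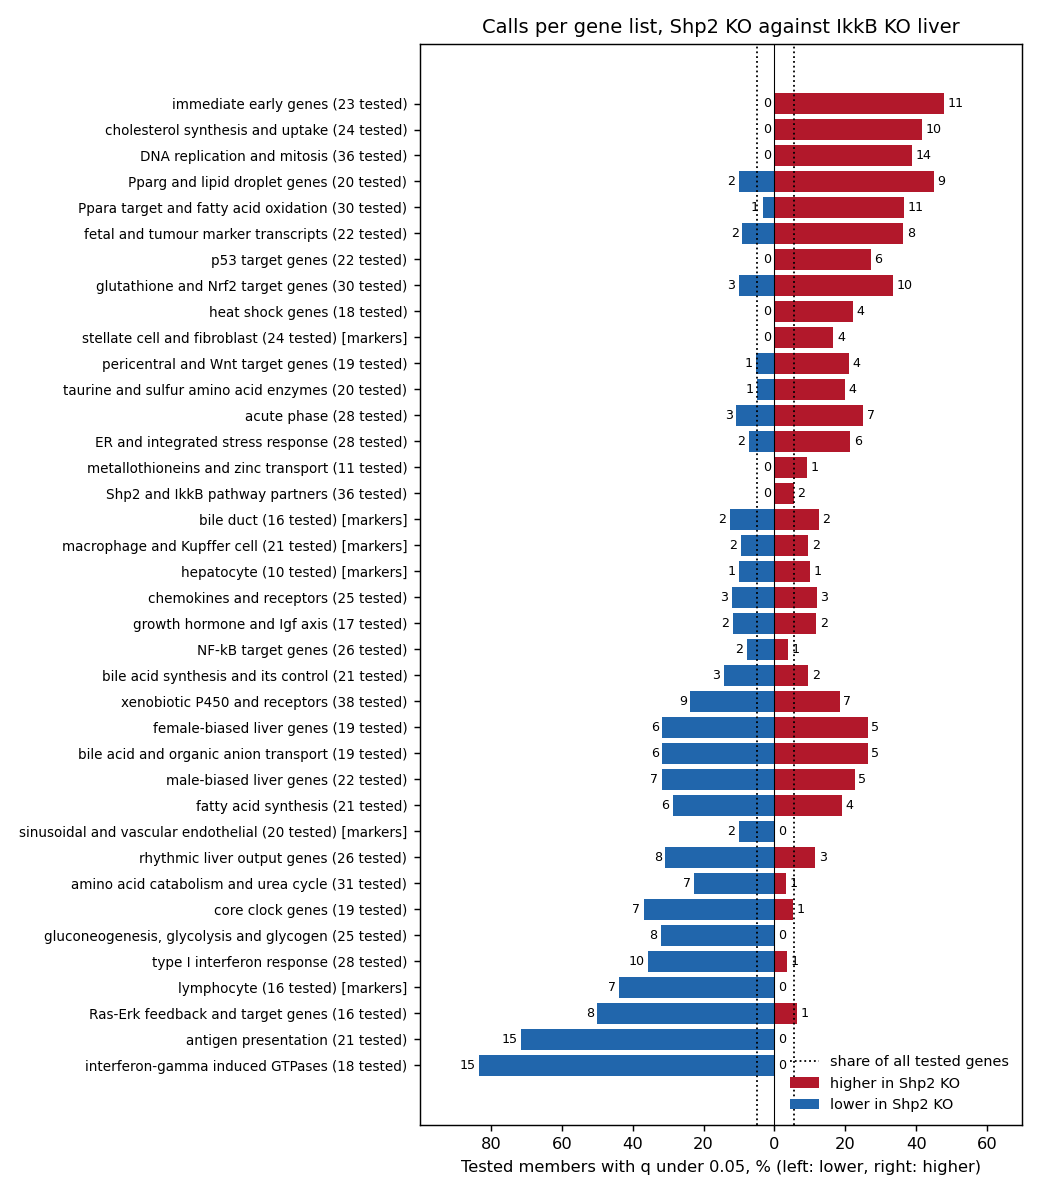
Share of the tested members of each list with at least 10 tested genes that was higher (right, red) or lower (left, blue) in Shp2 KO than in IkkB KO liver, in percent, with the number of genes at the bar's end and dotted lines at the shares of all tested genes, 5.43% and 4.84%. Interferon GTPases and antigen presentation, with 15 lower genes each, stand at one end and immediate early and cholesterol synthesis genes, with 11 and 10 higher genes, at the other. The lists were chosen with earlier results of these data known.

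Bile acid synthesis separated the knockouts at its rate-limiting step. Cyp7a1, which opens the classical pathway, was at 135 in Shp2 KO and 48.6 in IkkB KO, with WT at 29.97. Cyp8b1, which directs synthesis to cholic acid, was at 514, 202 and 136. Nr0b2, the receptor SHP that represses both, had the opposite order, at 7.32, 28.003 and 39.6. Of 21 tested members of the synthesis list, 2 were higher and 3 lower in Shp2 KO (median -0.06). The remaining lower genes were the oxysterol hydroxylase Cyp39a1, at 5.74 against 12.01, and the cholesterol hydroxylase Cyp46a1, at 1.43 against 2.68.

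Bile acid and anion carriers went both ways. Of 19 tested bile acid and organic anion transporters, 5 were higher and 6 lower in Shp2 KO. Exporters were among the higher ones: Abcb11, the bile salt export pump, was at 159 against 66.2, the phospholipid flippase Abcb4 at 99.3 against 56.4, and basolateral Abcc4 at 1.6001 against 0.297. Slc51b, a subunit of the basolateral bile acid exporter, was at 4.801 against 1.47, while its partner subunit Slc51a is listed at 0 in both. The uptake carrier Slc10a2 was higher as well, at 11.01 against 6.05. Uptake carriers were among the lower ones: Slco1a1 was at 29.9 against 89.5, Slc10a1 (the main bile acid importer) at 384 against 604, and Slc22a7 at 20.6 against 48.1. Also lower were Abcg5 and Abcg8, which pair to form the sterol exporter, at 38.2 against 82.8 and 18.3 against 54.3.

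Cholesterol synthesis genes were higher in Shp2 KO without exception among those called. These enzymes turn acetyl units into cholesterol and are driven by the sterol-sensing factor Srebp2. Of 24 tested members 10 were higher and 0 lower, with a median of 0.47. Acat2, which makes acetoacetyl-CoA, was at 75.1 against 37.9, the largest difference of the list, at 1.98-fold. Fdps was at 471 against 269 and Cyp51 at 116 against 65.1. In WT the 3 stood at 32.02, 219 and 62.9, close to IkkB KO. Hmgcs1 is listed at 0 in both.

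**Figure D4:**
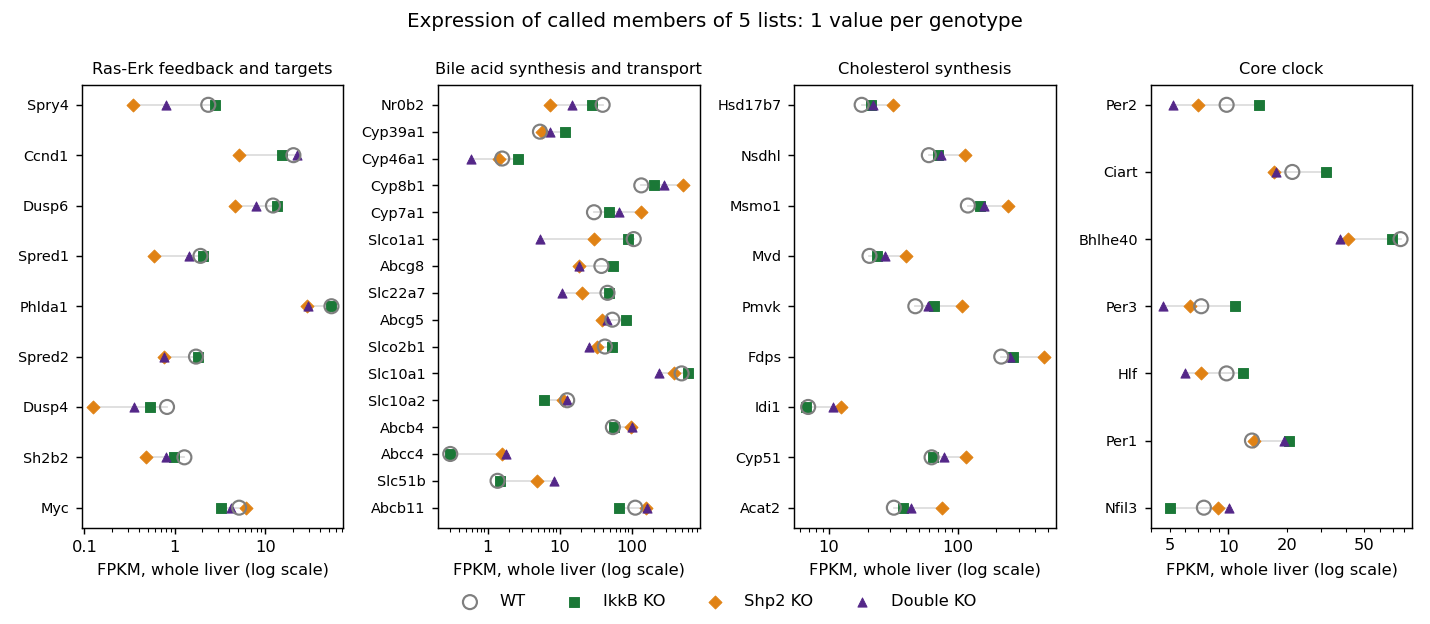
Expression in whole liver (x, FPKM, log scale) of called members of 5 lists, with bile acid synthesis and transport in 1 panel, 1 marker per genotype and no error bars. For Spry4, Dusp6 and Spred1, Shp2 KO (diamond) lies left of WT (open circle) and IkkB KO (square); for the 9 cholesterol genes plotted it lies right of both, and for Per2, Ciart and Per3 IkkB KO lies right of the other 3 genotypes.

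Genes of lipogenesis went both ways. Of 21 tested members 4 were higher and 6 lower in Shp2 KO. Lower were the transcription factors Srebf1, at 72.9 against 143, and Mlxipl, the carbohydrate-sensing factor ChREBP, at 108 against 170.5. Pklr, pyruvate kinase, was at 122 against 261, and Pnpla3, a lipid droplet hydrolase, at 0.172 against 1.79. Higher were Me1, malic enzyme, at 134 against 54.2, and Scd2, a desaturase, at 3.54 against 1.15. Fasn, fatty acid synthase, was at 92.8 and 135 and was not called.

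Called genes of lipid uptake, storage and oxidation were mostly higher in Shp2 KO. Of 20 tested Pparg and lipid droplet genes, 9 were higher and 2 lower (median 0.70). Pparg, the fat-storing nuclear receptor, was at 17.3 in Shp2 KO and 4.36 in IkkB KO, with WT at 4.12. Cd36, a fatty acid carrier, was at 25.8, 4.15 and 4.85 in the same order, and Fitm1, which helps to form droplets, at 148, 29.95 and 39.3. In all 3 IkkB KO was near WT and Shp2 KO above both. The droplet protein Cidec was at 9.43 against 2.07. Lower were Apoa4, an apolipoprotein, at 102 against 355, and Vldlr, a lipoprotein receptor, at 0.381 against 1.23. The fat cell markers Adipoq and Cfd moved against these, at 0.05301 and 0.765 in Shp2 KO and 0.737 and 3.12 in IkkB KO.

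Of 30 tested targets of Ppara and genes of fatty acid oxidation, 11 were higher and 1 lower in Shp2 KO (median 0.35). Cyp4a14, a fatty acid hydroxylase, differed 19.99-fold, at 244 against 12.2 (WT 5.39). The acyl-CoA thioesterases Acot1 and Acot2 were at 20.8 against 4.797 and 5.07 against 1.36. Fgf21, a fasting hormone, was at 7.46 against 1.496, and Pdk4, which spares glucose, at 3.04 against 0.711. The mitochondrial gatekeeper Cpt1a was at 105 and 103 and Ppara itself at 27.3 and 35.2, and neither was called.

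Sex-biased genes did not follow 1 direction. In mice the pattern of growth hormone release sets male and female liver expression through Stat5b. Of 22 tested male-biased genes 5 were higher and 7 lower in Shp2 KO, and of 19 tested female-biased genes 5 were higher and 6 lower. Hsd3b5, a male-specific steroid enzyme, was at 4.29 in Shp2 KO and 151 in IkkB KO, with WT at 278, and thus a 35.2-fold difference between the knockouts. Male-biased Cyp4a12a, nearly identical to Cyp4a12b, showed the reverse, at 434, 46.1 and 141, as did Elovl3, a fatty acid elongase, at 165, 36.6 and 101. For both of these WT lay between the knockouts. Of 4 tested genes of major urinary proteins in the list, 3 were lower in Shp2 KO: Mup3 was at 1759 against 13728, Mup12 at 5.83 against 38.5 and Mup1 at 10.9 against 40.4. The fourth, Mup21, was at 199 and 258 and was not called. Genes of this family are near-identical, and the 3 lower ones are listed at 0 in WT, so no WT level is given.

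On the female-biased side, Cyp2a5 was at 2275 in Shp2 KO and 819 in IkkB KO, with WT at 351. Cyp2a4, of the same family, was not called (q = 0.102 in the authors' deposited table). Ntrk2, a neurotrophin receptor, was at 7.13 against 0.455, and A1bg, a secreted glycoprotein, at 0.895 against 0.1602. Lower in Shp2 KO were Cyp17a1, a steroid hydroxylase, at 4.55 against 16.8, and Cyp2b9, at 0.0429 against 2.198. Cux2, a female-specific transcription factor, was at 0.128 against 0.749. For Cyp17a1 and Cyp2b9 Shp2 KO was near WT, at 4.11 and 0.0402. In the growth hormone and Igf list, 2 were higher and 2 lower of 17 tested. Socs2 and Cish, both feedback inhibitors induced by Stat5, went opposite ways, Socs2 at 19.8 against 7.01 and Cish at 8.86 against 15.3. The receptor Ghr was at 165 and 207 and Igf1 at 215 and 232, neither called.

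Detoxification genes also differed in both directions. Of 38 tested xenobiotic enzymes and receptors, 7 were higher and 9 lower in Shp2 KO. The main drug-metabolising Cyp3a11 was 3.51-fold higher, at 1215 against 346, and Cyp2c38 was at 44.6 against 20.6. Lower were Cyp2f2, at 479.6 against 880.4, and the sulfotransferase Sult1a1, at 143 against 351. Of 30 tested glutathione and Nrf2 target genes, 10 were higher and 3 lower (median 0.42). Gstm3, a glutathione transferase, was at 236 against 86.01, Ephx1, an epoxide hydrolase, at 643 against 286, and heme oxygenase Hmox1 at 28.7 against 17.04. The catalytic subunit of glutathione synthesis went the other way, Gclc at 34.8 against 51.1, while its modifier Gclm was at 118 against 80.5. Nqo1, another Nrf2 target, was at 14.1 and 6.59 and was not called. Copies of the Cyp2c and Gstm families are alike, so their values are uncertain.

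Enzymes that lead from methionine to taurine were higher in part. Csad, which makes the precursor of the taurine joined to bile acids, was at 749 in Shp2 KO and 86.4 in IkkB KO, with WT at 74.4. Cth, which releases cysteine, was at 603 against 259, and Bhmt, which remakes methionine, at 864 against 463. Of 20 tested members 4 were higher and 1 lower, the latter being Gamt, of creatine synthesis, at 191 against 338. Cdo1, the enzyme before Csad, was at 1006 and 1219.8 and was not called.

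The called clock genes, Nfil3 apart, were lower in Shp2 KO than in IkkB KO liver. The clock runs on the activators Clock and Arntl, which bind E-boxes and switch on their own Per and Cry repressors, while Dbp, Tef and Hlf activate and Nfil3 represses at D-boxes. The 250 bases before Ciart and Per1 are shown, as called clock genes with an E-box (CACGTG) in the window; RefSeq, GRCm38.p6, gene strand, with matches to the E-box and the D-box (TTATGNAA or TTNCATAA) in capitals. Ciart lies at chr3:95882229-95882478 on the minus strand and Per1 at chr11:69098699-69098948 on the plus strand.
Ciart: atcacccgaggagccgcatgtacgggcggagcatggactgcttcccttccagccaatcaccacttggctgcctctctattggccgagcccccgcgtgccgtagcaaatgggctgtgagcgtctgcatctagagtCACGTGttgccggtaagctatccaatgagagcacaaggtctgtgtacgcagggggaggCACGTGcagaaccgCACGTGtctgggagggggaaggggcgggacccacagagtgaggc
Per1: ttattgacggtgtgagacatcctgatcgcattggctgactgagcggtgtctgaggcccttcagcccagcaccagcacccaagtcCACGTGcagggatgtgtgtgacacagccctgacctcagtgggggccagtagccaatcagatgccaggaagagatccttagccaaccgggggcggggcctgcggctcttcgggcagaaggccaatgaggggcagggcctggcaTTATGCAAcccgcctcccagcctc
Ciart holds 3 E-box matches and no D-box match, and Per1 holds 1 of each. Of 17 clock genes with a promoter 5 held an E-box and 2 a D-box, against 6.86% and 3.63% of all genes in the table. Of the 5 called clock genes with a promoter, 2 held an E-box and 2 a D-box. In the rhythmic output list 5 of 23 genes held an E-box and 2 a D-box. Of its 9 called ones 2 and 0 did. A sterol element (SRE) was found in 1 of 17 cholesterol genes and 0 of 8 called ones, against 1.22% of all genes. An antioxidant element (ARE) was found in 2 of 26 glutathione and Nrf2 target genes and 0 of 11 called ones, against 2.80%.

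Of 19 tested clock genes, 7 were lower and 1 higher in Shp2 KO (median -0.21). Per2 was at 6.99 in Shp2 KO and 14.4 in IkkB KO, with WT at 9.795. Per1 was at 13.5, 20.5 and 13.2 in the same order, Per3 at 6.38, 10.8 and 7.25, and the repressor Ciart at 17.2, 31.7 and 21.3. In these 4, IkkB KO was highest of the 3 genotypes, and for Per1 Shp2 KO lay at the WT level. Bhlhe40, another repressor, was at 40.9 against 68.9 and lay near WT (76.6) in IkkB KO. Hlf was at 7.26 against 11.9. Nfil3 alone was higher in Shp2 KO, at 8.85 against 5.01. The activators were not called: Arntl was at 0.514 and 0.333 and Clock at 1.92 and 1.33 (q = 0.0723 in the authors' deposited table). Dbp was at 110.03 and 146 and Nr1d1, a repressor of Arntl, at 46.7 and 52.7. The labels give no hour of collection.

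Rhythmic output genes followed in part. Of 26 tested members 8 were lower and 3 higher in Shp2 KO. Rgs16, a brake on G protein signalling that rises with fasting, was at 2.95 in Shp2 KO, 161 in IkkB KO, 38.9 in WT and 0.885 in Double KO. At 54.5-fold between the single knockouts it was the largest fall among list members by log2 difference (-5.35). Tsc22d3, a glucocorticoid-induced gene, was at 50.6 against 115, and Pfkfb3, which drives glycolysis, at 6.096 against 15.2.

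Called members of the lists of glucose metabolism and of amino acid breakdown were lower in Shp2 KO, with 1 exception. Of 25 tested genes of glucose and glycogen metabolism, 8 were lower and 0 higher. Gys2, liver glycogen synthase, was at 89.01 against 181, and its regulator Ppp1r3c at 6.48 against 16.6. Slc2a2, the glucose carrier GLUT2, was at 93.3 against 145. The gluconeogenic enzymes G6pc and Pck1 were at 314 and 1439 in Shp2 KO and 278 and 1592 in IkkB KO, neither called. Of 31 tested genes of amino acid breakdown and the urea cycle, 7 were lower and 1 higher. Hal, which degrades histidine, was at 35.5 against 137, Agxt, which handles glyoxylate, at 115 against 264, and arginase Arg1 at 756 against 1320.4. Oat, of ornithine metabolism and also a pericentral gene, was the one higher, at 1025 against 552.

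All called immediate early and heat shock genes were higher in Shp2 KO. Of 23 tested immediate early genes 11 were higher and 0 lower (median 0.45). Dusp1, a stress phosphatase, was at 24.4 in Shp2 KO and 14.2 in IkkB KO, with WT at 38.4. Fos was at 1.13, 0.4805 and 1.201 in the same order, and the nuclear receptor Nr4a1 at 5.73, 2.43 and 5.09. For Fos and Nr4a1 Shp2 KO lay at the WT level and IkkB KO below it, and for Dusp1 both lay below WT. Of 18 tested heat shock genes 4 were higher, among them Hspb1, a small heat shock protein, at 89.9 against 12.3, and Hsp90aa1 at 45.1 against 21.1. In the endoplasmic reticulum and integrated stress list 6 were higher and 2 lower of 28 tested. Asns, asparagine synthetase, was 14.3-fold higher, at 17.2 against 1.21 (WT 3.501), and Creld2, an endoplasmic reticulum stress gene, was at 52.6 against 27.5. Herpud1, of protein disposal, was lower, at 188 against 353, and the chaperone Hspa5 was at 387 and 304 and was not called.

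All called proliferation genes were higher in Shp2 KO, from low levels. Of 36 tested genes of DNA replication and mitosis, 14 were higher and 0 lower (median 0.35). Cdk1, the mitotic kinase, was at 1.78 in Shp2 KO, 0.707 in IkkB KO, 0.698 in WT and 3.16 in Double KO. Ube2c, which targets mitotic cyclins for breakdown, was at 2.41, 0.558, 0.455 and 5.31 in that order, and Mki67 at 0.533, 0.215, 0.184 and 1.18. IkkB KO lay near WT for these 3, and Double KO above Shp2 KO. Of the 14, only 8 reached a value of at least 1 in either single knockout. Of 22 tested p53 targets 6 were higher and 0 lower, and 16 were not called (median 0.08). Cdkn1a, the cell cycle inhibitor p21, was at 2.14 against 1.09, and the kinase gene Plk3 at 111 against 48.6. Mdm2 and Ccng1 were not called (q = 0.977 and 0.965 in the authors' deposited table). Called fibroblast markers were also higher: of 24 tested, 4 were higher and 0 lower. The collagen gene Col1a1 was at 6.33 against 2.71 and Col3a1 at 12.2 against 6.37. The whole fibroblast list summed to 348 in Shp2 KO and 331 in IkkB KO, and its part in the proliferation result was not tested.

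Fetal and tumour marker transcripts included one of the largest differences of the comparison. Ly6d, a cell surface protein, was at 65.3 in Shp2 KO, 1.399 in IkkB KO, 1.94 in WT and 129.8 in Double KO, a 46.7-fold difference between the single knockouts. Of 22 tested members of this list, 8 were higher and 2 lower in Shp2 KO. The fetal RNA H19 was at 1.15 against 0.549, while Double KO stood at 411. Tff3, a secreted trefoil peptide, was lower, at 8.03 against 28.2, and Mycn was at 0.0788 against 1.24. Afp, the fetal albumin, was at 1.28 and 0.818 and was not called. Among pericentral and Wnt target genes 4 were higher and 1 lower of 19 tested, and the marker Glul, glutamine synthetase, was at 544 and 487, not called.

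Other cell type markers differed in their share of calls. Of 20 tested endothelial markers 2 were lower, among them Lyve1 at 1.39 against 2.78, and 0 higher. The share called in either direction was near that of all tested genes (10.3%), of which 4.84% were lower. Unadjusted Cuffdiff p-values were under 0.05 for 8 of the 20 with a lower value and 0 with a higher one. The median of these markers was -0.26. The endothelial list summed to 144 in Shp2 KO and 189.8 in IkkB KO. Bile duct markers went both ways, 2 higher and 2 lower of 16 tested, with keratin Krt19 at 1.51 against 0.616. Of 6 tested neutrophil markers 0 were called by Cuffdiff. Before adjustment, p fell under 0.05 for 2 of them with a higher value and 0 with a lower one. The exocrine protease gene Cela1 was lower, at 6.24 against 26.98, while 10 of the 17 pancreatic markers were at 0 in both groups. Of 5 tested red cell genes 2 were higher and 2 lower, with Alas2, of heme synthesis, at 108 against 64.3 and Car1, a carbonic anhydrase, at 5.77 against 12.2. Of 6 tested adipocyte markers 1 was higher, the droplet gene Cidec, and 2 were lower, Adipoq and Cfd. Chemokines and their receptors were balanced, 3 higher and 3 lower of 25 tested. Cxcl9, a chemokine induced by interferon gamma, was at 3.21 against 9.66, and Ccl9 at 7.64 against 28.8.

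Outside the lists, 1000 further genes were called. Among the 15 largest rises in Shp2 KO were Slc39a5, a zinc carrier, at 11.1 against 0.495, and Cyp2c69 at 30.2 against 3.297. Anxa5, a phospholipid-binding annexin, was at 148 against 30.3, Lgals1, a galectin, at 87.3 against 15.4, and Pebp1, an inhibitor of Raf, at 253 against 57.2. WT stood near IkkB KO for Slc39a5 (0.616) and Anxa5 (35.9), and between the knockouts for Pebp1 (116). The largest value of all, for Mir3098, rests on a listed 0 in IkkB KO against 94.2 in Shp2 KO, and no fold is given. Among the 15 largest falls were Sult5a1, a sulfotransferase, at 4.44 against 30.7, and Sucnr1, the succinate receptor, at 3.47 against 19.3. Hsd11b1, which activates glucocorticoids, was at 161 against 602, Enho, the gene of the hormone adropin, at 12.8 against 48.6, and Pctp, a phosphatidylcholine carrier, at 15.4 against 57.4. For Hsd11b1 WT lay between the knockouts, at 469, and for Pctp it lay closer to Shp2 KO, at 22.4.

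The same pair of genotypes was then set side by side in isolated hepatocytes, which are other libraries; whether the same mice gave both is not stated. The hepatocyte table used here tests 5 pairs of genotypes, and this pair is compared there by its levels, with no test. Of 1295 genes called in liver, 1282 had a value of at least 0.1 in either hepatocyte knockout, and 1136 of these (88.6%) differed in the same direction. Among the 11229 genes tested and not called in liver, the share was 64.8%. The direction was shared by 594 of 680 genes higher and 542 of 602 genes lower in Shp2 KO liver. The median hepatocyte difference was 0.51 for the higher and -0.50 for the lower genes, against 0.69 and -0.71 in liver.

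Several lists kept their direction in hepatocytes for every called member: 15 of 15 interferon GTPases, 15 of 15 antigen presentation genes, 9 of 9 Ras-Erk genes, 10 of 10 cholesterol genes and 10 of 10 acute phase genes. Saa1 was at 3003 in Shp2 KO and 127 in IkkB KO hepatocytes, and Mt2 at 952 and 16.8. Igtp was at 17.4 and 88.9, Rgs16 at 4.54 and 141, and Csad at 544 and 38.8. For Mt2 the hepatocyte ratio was 56.7 against 2.23 in liver. Other lists were divided: 7 of 14 proliferation genes, 6 of 11 immediate early genes and 6 of 11 female-biased genes kept the direction. Of the 8 called clock genes 6 did. For a pair of them the 2 hepatocyte levels lay close together, with Per1 at 10.6 and 9.45 and Ciart at 9.798 and 10.2. Nr0b2 was at 21.97 and 23.5 in hepatocytes, where Cyp7a1 was at 96.998 and 24.8. Differences between the 2 preparations were not tested.

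**Figure D5:**
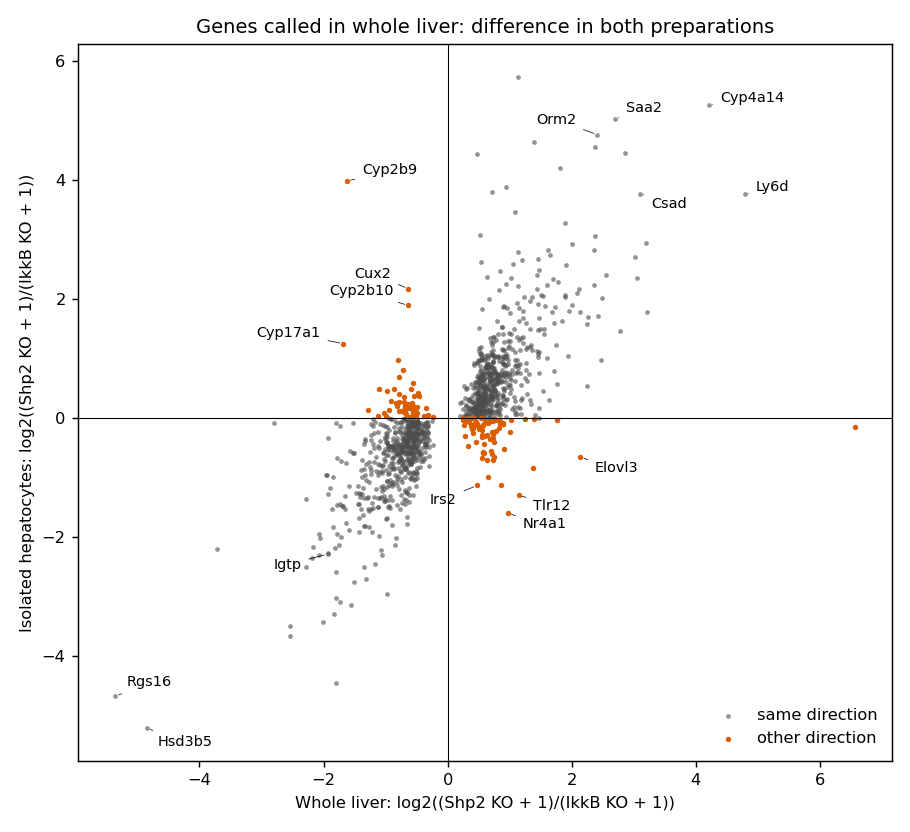
Each point is a gene called in whole liver, plotted by its difference between Shp2 KO and IkkB KO in liver (x) and in isolated hepatocytes (y), both as log2((Shp2 KO + 1)/(IkkB KO + 1)), with 1 gene too abundant for a hepatocyte value left out. Grey points (1136) have the same sign in both and orange points (145) do not; Cyp2b9, Cux2 and Nr4a1 are far into the other quadrants, while Rgs16, Hsd3b5, Cyp4a14 and Saa2 are at the ends of the diagonal.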

How the data were processed

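The submitters' processing notes name FastQC, Cuffdiff and the mouse build mm9. Not given in the sources used here were the aligner, the annotation, strand handling and all versions. The authors deposited, for liver and for hepatocytes, 1 FPKM value per gene and genotype; the header does not name the unit, which is FPKM by Cuffdiff's convention. The deposited log2 ratios and the test score, per the file headers, were set aside. Each p-value and q-value is from the authors' Cuffdiff tests, and recomputing q by Benjamini-Hochberg over all 6 liver pairs gave a largest difference of 5.27e-07. The values pool the replicates, so no depth, SD or test over replicates could be computed, and p-values measure only the spread seen by Cuffdiff.

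Of 24319 genes, 11685 were not tested in this pair and 29 were too abundant. All 12605 tested genes reached 0.1 in either knockout, so the filter on low values removed none. Differences used a pseudocount of 1. The members and the 43 gene lists (10 of them cell type markers; 959 genes, 831 tested) were chosen with earlier results of these data known. Named genes were Ptpn11 and Ikbkb, list members, and outside the lists the 15 largest differences each way with a value of at least 1; others are said to be chosen later. Motifs were searched in 250 bases before RefSeq gene starts (GRCm38.p6, 32851 starts; a gene counted if any start matched) and were chosen after the values were seen. Alternatives were a q-value under 0.01, other filters, a log2 difference of at least 1, adjustment within the pair, centring and a pseudocount of 0.1. The reading of direction and the adjustment were run on simulated data of a fixed spread, which did not test Cuffdiff's calls. Of 200 changed genes, 17 were recovered at 1.5-fold, 162 at 2-fold and 200 at 3-fold, with 0, 8 and 9 false calls. Python 3.11.15, numpy 2.4.6, pandas 2.3.3 and matplotlib 3.10.9 were used. A few list members counted in the lists are not reported here by name or plotted.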

Additional observations from a re-analysis of the deposited data

How the results depend on the processing

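With a log2 difference of at least 1 required besides the q-value, 311 of the 1295 called genes were left, 152 higher and 159 lower in Shp2 KO, and 115 of the 295 called list genes; no cholesterol synthesis or clock gene reached that size, against 10 of 15 interferon GTPases. Under the other alternatives (a q-value under 0.01, no filter, a value of at least 1 in either knockout, adjustment within this pair, centring) these counts stayed within 1.5 times, from 877 to 1295 called genes. At a q-value under 0.01, Ikbkb was no longer called and immediate early genes went from 11 to 7 higher. Of 86 list counts, 17 moved by over 1.5 times at a q-value under 0.01. A pseudocount of 0.1, which cannot turn the direction of a gene, moved 12 of 43 list medians by over 0.1, the interferon GTPases from -1.14 to -1.53. No paired analysis was possible because the tables hold no value per replicate, and no replicate could be left out for the same reason. Depth is unknown, so what it limits could not be assessed. Leaving out genes too abundant for a hepatocyte value, chosen after seeing the data, left 1136 genes with the same direction.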

Other observations

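A few genes differed between the knockouts in opposite directions in the 2 preparations. Of the 145 called liver genes with the other direction in hepatocytes, 8 differed there by a log2 of at least 1, a size chosen after seeing the data. The female-biased genes Cyp2b9, Cux2 and Cyp17a1 and the xenobiotic-induced Cyp2b10 were lower in Shp2 KO than in IkkB KO liver and higher in hepatocytes: Cyp2b9 stood at 53.9 in Shp2 KO and 2.47 in IkkB KO hepatocytes, Cux2 at 4.78 and 0.279, Cyp17a1 at 30.1 and 12.1, and Cyp2b10 at 5.997 and 0.883. The other four were higher in Shp2 KO liver and lower in hepatocytes. Nr4a1, an early response gene, stood at 1.45 and 6.44 in hepatocytes, Irs2 at 2.38 and 6.42, the Toll-like receptor gene Tlr12 at 0.388 and 2.405 (liver 9.597 and 3.799), and Nrep at 9.33 and 21.5 (liver 49.9 and 26.9). These opposite directions were not tested, since this pair has levels only in the hepatocyte table.

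Gh, growth hormone, a gene of the pituitary and outside the lists, was chosen after its values were seen. WT liver listed it at 0.0135 and Double KO at 1.299, while IkkB KO reached 9.55 and Shp2 KO 2.18; the 3 groups labelled with the Alb-Cre transgene were thus above 1 and WT near 0. In the authors' deposited table q was 0.45 for each single knockout against WT and 0.000955 for the pair of knockouts.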
